A study of Mus musculus with 7 samples.

Results

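The Lin28a mRNA was followed base by base in the CIRS-seq libraries of E14 mouse ESCs, an established embryonic stem cell line, and in 1 RNA-seq library of the same cells. It was found by its symbol in the deposited RT stop counts, where it is 1 transcript (ENSMUST00000051674, gene ENSMUSG00000050966) of the 26827 transcripts listed, and 1 gene of 13218. CIRS-seq reads out the places where reverse transcriptase halts, because a chemically modified base blocks it. Cells were lysed and treated with Proteinase K to strip proteins from the RNA, and the lysate was then left untreated (NT, 2 libraries), modified with dimethyl sulfate (DMS, pooled doses of 50 to 200 mM for 2 minutes, 2 libraries), or modified with the carbodiimide CMCT (pooled doses of 10 to 50 mM for 20 minutes, 2 libraries). All 6 libraries were ribosomal RNA-depleted and primed with random hexamers, and NT was itself a pool of the 0 mM aliquots of both reagents. DMS modifies unpaired A and C, and CMCT modifies unpaired U and, less readily, G.

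Lin28a encodes a small RNA-binding protein with a cold-shock domain and a pair of CCHC zinc knuckles. It binds the let-7 precursors and blocks their maturation, which keeps the let-7 microRNAs low in pluripotent cells, and it is a reprogramming factor. The Lin28a mRNA is in turn a target of let-7 and of miR-125, so that the protein and let-7 repress each other.

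The mRNA is 3505 nucleotides long on mm9, from 4 exons on the minus strand of chromosome 4 (chr4:133559245-133574756). Its 5′ UTR takes positions 1 to 100, the coding region positions 101 to 730 (209 codons and the stop codon), and the 3′ UTR of 2775 nucleotides positions 731 to 3505. Exon 4 alone holds the last part of the coding region and the whole 3′ UTR. The last 25 nucleotides carried no RT stop in any library, so that 3480 positions were measured. All 3505 bases equalled those of the GENCODE vM1 transcript.

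Matches to the let-7 and miR-125 seeds are shown first, because this mRNA is a known target of both. The sites were found by sequence alone, and their action was not tested. Capitals mark the seed of each microRNA (bases 2 to 8, from RefSeq, GRCm38.p6) and the match to it in the mRNA. The let-7 seed was shared by 11 mature mouse microRNAs in that table and the miR-125 seed by 5, and 1 of each is given.
let-7a: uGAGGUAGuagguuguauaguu
site 1 in the 3′ UTR, positions 1624 to 1646 (chr4:133561104-133561126): gcacagccuguugaaCUACCUCa
site 2 in the 3′ UTR, positions 2262 to 2284 (chr4:133560466-133560488): gagaucgccacaaacCUACCUCa
miR-125b: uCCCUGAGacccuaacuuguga
site in the coding region, positions 636 to 658 (chr4:133562092-133562114): agcagggccccaguuCUCAGGGa
site in the 3′ UTR, positions 1512 to 1534 (chr4:133561216-133561238): agguacaugagcaauCUCAGGGa
All 4 sites are followed by an A in the mRNA, and all lie in exon 4. The letters CUACCUC, searched on the sense strand, occurred at least once in 17.6% of 904 mouse 3′ UTR stretches of the same length, and 2 or more times in 2.77%. The letters CUCAGGG occurred in 22.5% of them. No such share was computed for coding regions.

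Before the counts are read, 2 properties of the libraries bear on them. First, a stretch of the Lin28a 3′ UTR has a near copy elsewhere in mm9. Of the measured positions, 2910 (83.6%) start a run of 25 bases found once in the genome, and these positions held 79.2% of the Lin28a RT stops, against a median of 15.6% over genes and 7.94% of the stops of all genes together. Another 511 positions (14.7%) start a run found more than once and held 18.3% of the stops, and 59 lie across an exon junction. Most of the repeated positions, 460 of them with 6170 stops over the 6 libraries, lie between positions 1135 and 1692, with a median of 2 occurrences, although the 25 bases from position 1400 occur 23 times. A copy of this stretch is at chr7:113836021-113836566, where GENCODE vM1 lists no gene. Reads from the copies cannot be told apart there. The first let-7 site and the miR-125 site of the 3′ UTR lie inside this stretch, whereas the second let-7 site lies outside it.

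Second, replicates of NT and of CMCT differed over the positions of Lin28a on average by less than counting noise, and those of DMS by more. Between both NT libraries the counts per position differed by a chi-square per degree of freedom of 0.938, between both CMCT libraries by 0.826, and between both DMS libraries by 1.37, where 1 is the value of pure counting noise. The 12 pairs of libraries of different treatments gave 1.76 to 2.74. Where both libraries had 3 or more stops, counts were equal at 30.5% of 361 positions in NT, 23.6% of 403 in DMS and 23.6% of 509 in CMCT, but at 6.96% to 13.7% between treatments. Over 4410 mRNAs the medians of this chi-square value were 1.21 for the NT pair, 1.20 for the DMS pair and 0.979 for the CMCT pair. It was below 1 in 18.3% of these mRNAs for NT, 19.9% for DMS and 55.2% for CMCT. In the summed counts of genes, a different measure, the replicates did differ, with a chi-square per degree of freedom of 773 in NT, 1693 in DMS and 1523 in CMCT, so they were kept as separate samples. Whether replicate libraries share molecules was not tested, and p-values measure only the spread between these libraries, which may be technical.

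The number of RT stops on Lin28a was highest in the CMCT libraries. NT had 5140 and 3487 stops in replicates 1 and 2, DMS had 6322 and 4652, and CMCT had 9030 and 6286. The first replicate was above the second in every treatment, as were the library totals, and the ranges of NT and DMS, and of DMS and CMCT, overlapped. Per measured base these were 1.48 and 1.00 stops in NT, 1.82 and 1.34 in DMS, and 2.59 and 1.81 in CMCT. At least 1 stop was seen at 35.8% and 30.2% of the positions in NT, at 45.6% and 40.2% in DMS, and at 50.8% and 44.0% in CMCT, so that all 4 treated libraries touched more of the mRNA than either NT library.

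With counts scaled by TMM, the gene did not pass the test in any comparison. RT stop counts scaled to the library total by TMM (CPM) were 32.2 and 29.0 in NT, 32.5 and 24.8 in DMS, and 35.7 and 41.3 in CMCT. With TMM, both CMCT libraries lay above the other 4, and the DMS libraries lay on both sides of the NT libraries. Without TMM, counts scaled to the library total were 28.3 and 21.4 in NT, 37.1 and 30.2 in DMS, and 36.5 and 44.8 in CMCT. All treated libraries then lay above both NT libraries, so the place of DMS beside NT depended on the scaling. These values were not tested, and the edgeR fit below used TMM. The log2 fold change of DMS over NT was -0.09 (SE 0.30, adjusted p = 0.84, edgeR quasi-likelihood test with Benjamini-Hochberg adjustment), that of CMCT over NT was 0.33 (SE 0.30, adjusted p = 0.44), and that of DMS over CMCT was -0.43 (SE 0.30, adjusted p = 0.43). In the same fit 26.4%, 29.0% and 9.25% of all genes were called. As a bulk measurement, the scaled count cannot tell the number of cells with the mRNA from the amount of it per cell. By its mean RT stops scaled to the library total and per kilobase, 9.30, Lin28a stood at rank 2932 of 7943 protein-coding genes, above 63.1% of them, where the median was 5.13.

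The RT stops were also counted in the 3 parts of the mRNA. The 5′ UTR had 102 and 61 stops in NT, 97 and 67 in DMS, and 135 and 96 in CMCT. The coding region had 1123 and 574 stops in NT, 1542 and 941 in DMS, and 1807 and 1192 in CMCT. The 3′ UTR had 3915 and 2852 stops in NT, 4683 and 3644 in DMS, and 7088 and 4998 in CMCT. The 3′ UTR, with 2750 of the 3480 measured positions, thus held 74.1% to 81.8% of the Lin28a stops of every library. Per measured base it had fewer stops than the coding region, except in the second NT library (1.04 beside 0.911). As features among 16924 mRNA regions, the fold changes of DMS over NT were -0.40 (SE 0.26, adjusted p = 0.33) for the 5′ UTR, 0.15 (SE 0.25, adjusted p = 0.72) for the coding region and -0.14 (SE 0.28, adjusted p = 0.78) for the 3′ UTR on the log2 scale, with edgeR. Those of CMCT over NT were -0.06 (SE 0.26, adjusted p = 0.90), 0.28 (SE 0.25, adjusted p = 0.48) and 0.25 (SE 0.28, adjusted p = 0.56). Those of DMS over CMCT were -0.35 (SE 0.26, adjusted p = 0.48), -0.12 (SE 0.25, adjusted p = 0.81) and -0.39 (SE 0.28, adjusted p = 0.48). No region passed the threshold with edgeR, which called 13.0%, 16.4% and 0.65% of all regions, or with DESeq2, which called 15.1%, 19.2% and 3.36%. None had an unadjusted edgeR p under 0.05, as 30.5%, 33.8% and 18.9% of all regions had. Several of these signs turned when 1 library was left out.

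Of the 4 exons, exon 3, a coding exon, had the largest ratio between replicates in NT and CMCT but not in DMS. It held 359 and 132 stops in NT, 591 and 409 in DMS, and 638 and 358 in CMCT. Position 391, a U in this exon (capital in the stretch below), had the highest summed count of the coding region and the highest count of the mRNA in 4 of the 6 libraries, with 102 and 21 stops in NT, 158 and 27 in DMS, and 202 and 129 in CMCT. Its first replicate exceeded the second in all 3 treatments.
positions 377 to 405 (chr4:133563934-133563962): guggaguucaccuuUaagaagucugccaa

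**Figure D1:**
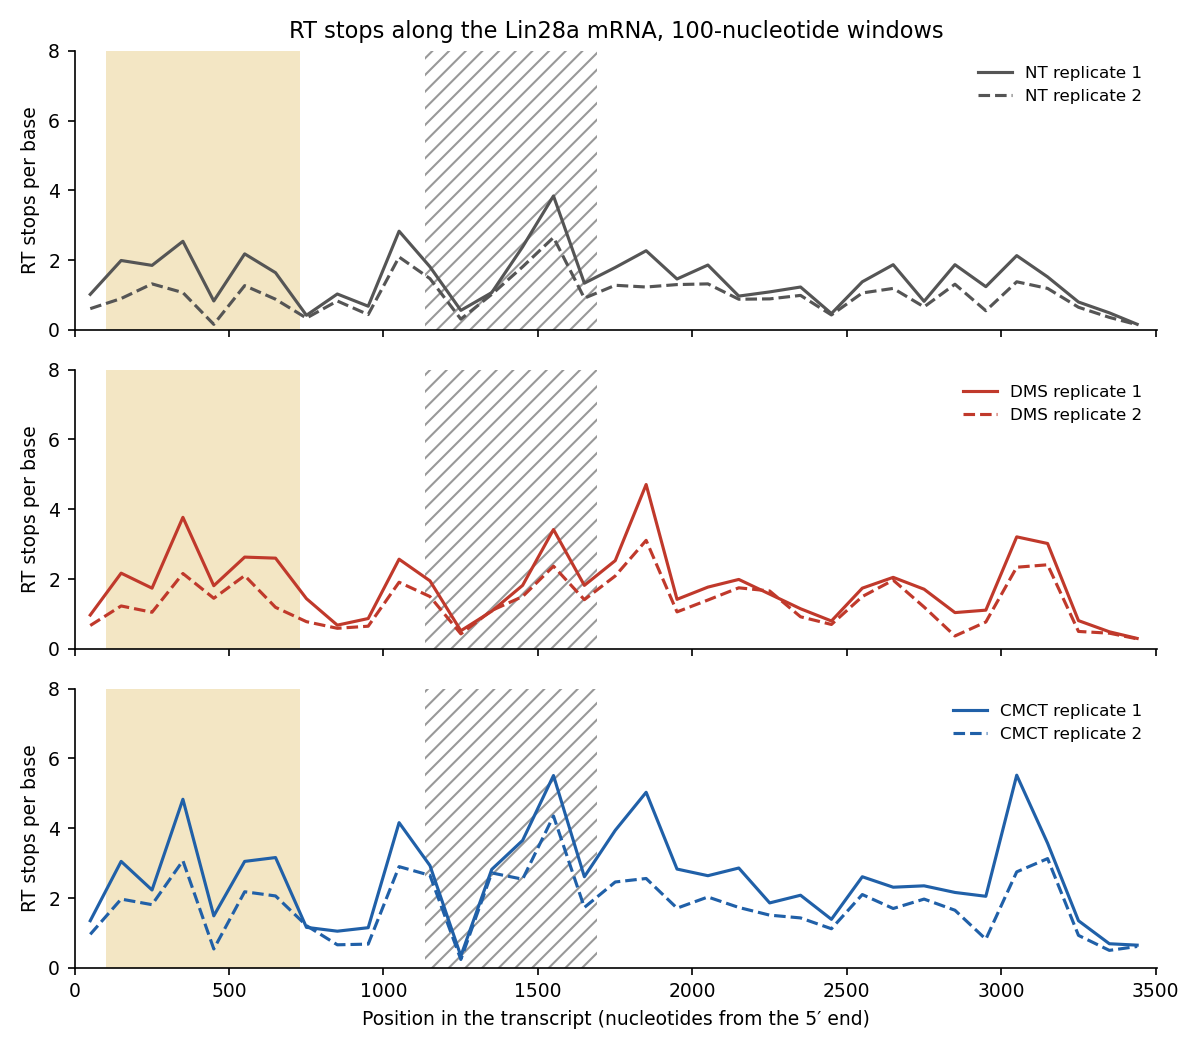
RT stops per base (vertical axis) in windows of 100 nucleotides along the Lin28a mRNA (horizontal axis, nucleotides from the 5′ end), with NT, DMS and CMCT in the upper, middle and lower panel, replicate 1 as a solid and replicate 2 as a dashed line. The shaded band is the coding region and the hatched band the stretch with a second copy in the genome. The window from 1801 to 1900 reached 4.71 and 3.11 stops per base in DMS against 2.27 and 1.23 in NT.

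The bases at which reverse transcriptase stopped differed by reagent. Stops at A made up 10.8% and 14.1% of the Lin28a stops in NT, 28.2% and 43.3% in DMS, and 10.2% and 10.9% in CMCT. Stops at U made up 38.8% and 40.6% in NT, 28.7% and 20.0% in DMS, and 48.8% and 49.4% in CMCT. A thus gained in both DMS libraries and U in both CMCT libraries, without overlap with NT. Per position, the mean log2 ratio of DMS over NT was 1.23 at A, 0.11 at C, -0.21 at G and -0.49 at U. The mean log2 ratio of CMCT over NT was 0.24 at U, -0.06 at A, -0.11 at C and -0.25 at G. The DMS signal on Lin28a therefore lay mainly on A and the CMCT signal on U. The CMCT preference for G and U together over A and C was small, at 0.12 on the log2 scale, and was 0.18 in replicate 1 and 0.00019 in replicate 2.

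Reactivity was then computed per position from the log2 ratio between the treated and the NT count, each scaled to the transcript mean, with negative ratios at 0 and the 90th percentile of the transcript at 1, and the larger of the DMS and CMCT values was taken. A reactivity of 0 marks a base that no reagent raised above NT or that had no treated stop. A value of 1 marks a base at or above the 90th percentile, which few stops can reach where NT had none. Position 723, for example, was at 1 with 1 and 2 stops in DMS and 0 and 0 in NT. Of the 3480 positions, 399 were weakly reactive (below 0.3), 542 moderately and 950 highly reactive (above 0.7). The mean over the coding region was 0.389 (0.364 in replicate 1 and 0.360 in replicate 2), over the 3′ UTR 0.363 (0.346 and 0.331) and over the 5′ UTR 0.262 (0.237 and 0.245). The 5′ UTR was below both other regions in each replicate, and the coding region was above the 3′ UTR by only 0.0263. Stops were also sparser in the 5′ UTR, with 0.97 and 0.67 per base in DMS and 1.35 and 0.96 in CMCT. In the coding region they were 2.45 and 1.49 in DMS and 2.87 and 1.89 in CMCT. The part of depth in the low 5′ UTR value was not tested. With CMCT alone the coding region was above the 3′ UTR by 0.00126 and above the 5′ UTR by 0.0670. Highly reactive positions were 14% of the 5′ UTR, 28.6% of the coding region and 27.5% of the 3′ UTR. The 5′ UTR was 42.0% C and 14% A, beside 28.3% C and 22.1% A in the coding region. Each base was also divided by the mean of its kind over all mRNAs compared. The coding region was still above the 5′ UTR, at 1.39 against 0.932, a difference of 0.131 when set back on the reactivity scale. Pearson's r between replicates was 0.575 per position and 0.814 in windows of 10 nucleotides, given as a description.

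Within the coding region, reactivity was highest at the first codon position. The mean was 0.447 at the first codon position, 0.369 at the second and 0.352 at the third. In replicate 1 these were 0.427, 0.349 and 0.316, and in replicate 2 they were 0.433, 0.309 and 0.339, so that the order of the second and the third position turned. The first position exceeded the mean of the other two by 0.087, more than in 95.2% of 4410 mRNAs with at least 1 treated RT stop per base, where the median was 0.025. With CMCT alone the difference was 0.0178, and in replicate 2 the third position (0.232) was above the first (0.229). Among the 385 mRNAs with at least 5 treated stops per base in both the coding region and the 3′ UTR, Lin28a was above 94.0%.

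The stop codon was among the most reactive places, while the start codon had a reactivity of 0 and hardly any stops. The 3 bases of the UGA stop codon (capitals below) had 0 stops in both NT libraries, 4 and 4 in DMS, and 9 and 8 in CMCT. The DMS replicates shared no base, with 4 and 0 stops at the U, 0 and 2 at the G and 0 and 2 at the A. A count of 0 in a library allows up to 3 stops (one-sided 95% limit, counting error only). The mean reactivity of the stop codon was 0.841 (0.667 and 1.0), above that of 93.3% of the 4410 mRNAs and of 86.2% of the 385. It rests on few stops.
positions 704 to 730 (chr4:133562020-133562046): gcccugcucccagaagcccagaauUGA
The AUG start codon had 3 and 1 stops in NT, 0 and 0 in DMS, and 1 and 0 in CMCT, which left its reactivity at 0 at this depth. All of these stops were at the A, and the U and the G had 0 stops in every library. The 6 bases before it had 21 and 14 stops in NT, 15 and 11 in DMS, and 43 and 33 in CMCT.

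**Figure D2:**
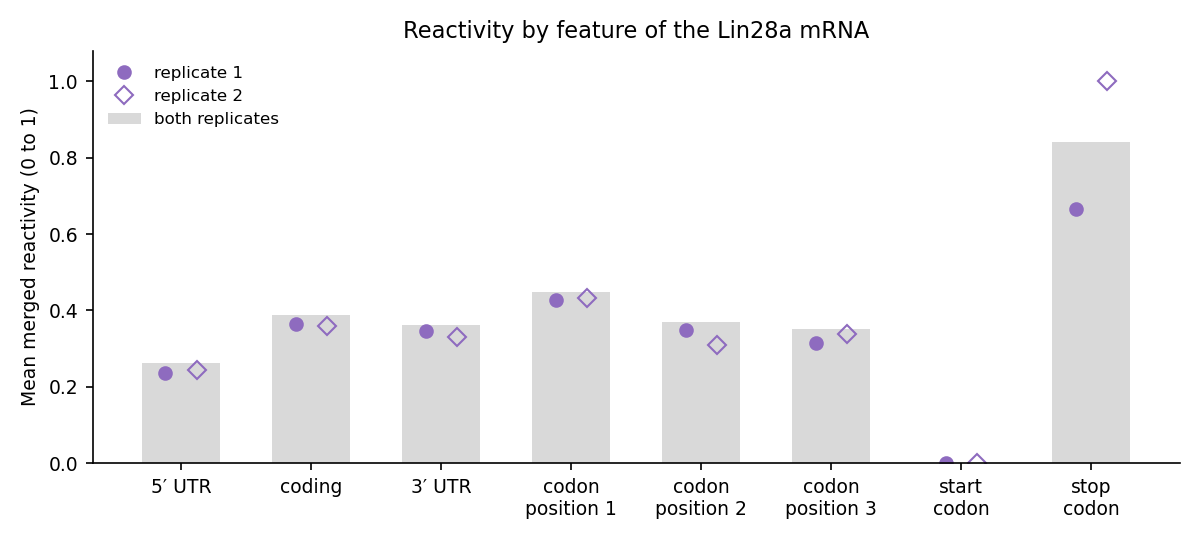
Mean merged reactivity (vertical axis, 0 to 1) of the 3 regions, the 3 codon positions, the start codon and the stop codon of Lin28a (horizontal axis). Bars give both replicates combined and start at 0, and points give each replicate alone. The 5′ UTR was lowest among the regions at 0.262, the start codon was at 0 and the stop codon at 0.841.

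The coding sequences of both zinc knuckles, which share the same CCHC pattern of 14 codons, differed in reactivity. Zinc knuckle 1 (codons 139 to 152) had a mean of 0.550 (0.509 and 0.561), with 19 of 42 positions highly reactive. It had 108 and 54 stops in NT, 145 and 102 in DMS, and 208 and 157 in CMCT. Zinc knuckle 2 (codons 161 to 174) had a mean of 0.198 (0.235 and 0.191), with 5 of 42 positions highly reactive. It had 84 and 66 stops in NT, 80 and 55 in DMS, and 70 and 50 in CMCT, so that the raw counts of NT overlapped those of both reagents. The order of both was the same in each replicate. The difference of 0.352 was 0.143 with DMS alone.

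In the 3′ UTR, which let-7 and RNA-binding proteins act on, reactivity was uneven along the length. Over both replicates combined, the 100-nucleotide windows with the highest means were those from 1801 to 1900 (0.521, with 0.513 and 0.475 in the replicates), from 3001 to 3100 (0.511) and from 2101 to 2200 (0.505). The highest was that from 3001 to 3100 in replicate 1 (0.529) and that from 3101 to 3200 in replicate 2 (0.480). The lowest were the last window, 3401 to 3480 (0.197), and that from 1201 to 1300 (0.201), which lies in the repeated stretch. Over all 35 windows, which share their libraries, the mean reactivity correlated with the treated RT stops per base (Pearson's r = 0.73) and less with the share of A and C (r = 0.33), and the replicates correlated with r = 0.91. The part of depth in the peaks was not tested.

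**Figure D3:**
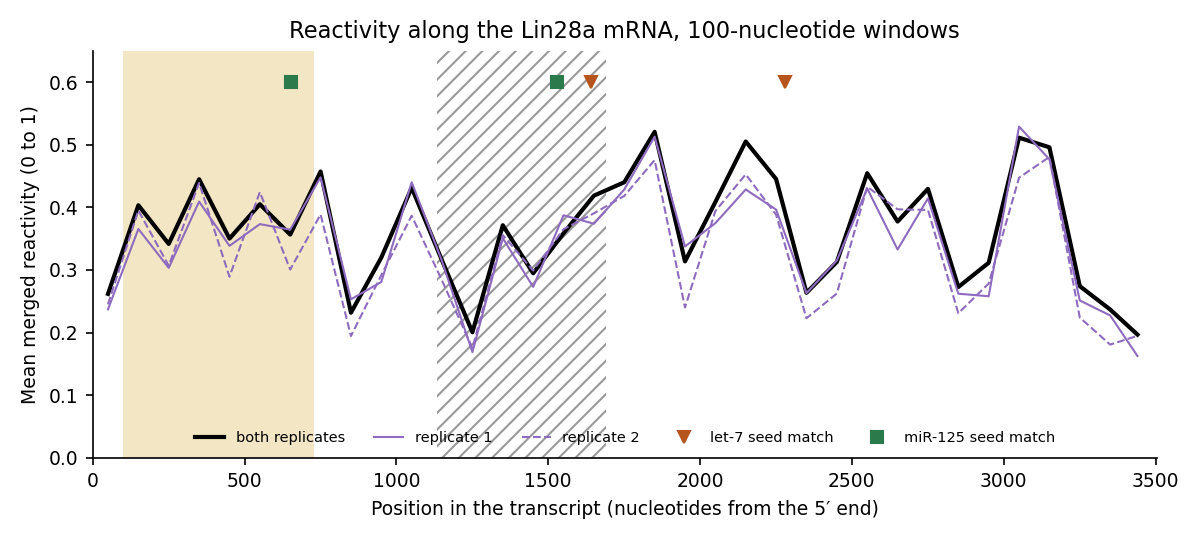
Mean merged reactivity (vertical axis, 0 to 1) in windows of 100 nucleotides along the Lin28a mRNA (horizontal axis, nucleotides from the 5′ end), for both replicates combined and for each alone. Triangles mark the let-7 and squares the miR-125 seed matches, the shaded band the coding region and the hatched band the stretch with a second genomic copy. For both replicates combined the highest window was at 0.521 and the lowest at 0.197.

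The let-7 seed matches had lower mean reactivities than the 3′ UTR, by little for the first match in replicate 2. The 7 bases of the first match had a mean reactivity of 0.242 (0.187 and 0.313), with 16 and 9 stops in NT, 14 and 8 in DMS, and 37 and 19 in CMCT. Those of the second match had a mean of 0.181 (0.146 and 0.156), with 10 and 14 stops in NT, 3 and 3 in DMS, and 10 and 10 in CMCT. In each match 1 of 7 bases was highly reactive, and the mean over both differed from that of the 3′ UTR by -0.151, and by -0.179 in replicate 1, -0.0962 in replicate 2 and -0.0477 with CMCT alone. The mean predicted probability of being unpaired was 0.665 at the first match and 0.285 at the second. The miR-125 matches had means of 0.201 in the coding region (0.212 and 0.224) and 0.247 in the 3′ UTR (0.289 and 0.148). The single sites were not tested.

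Both letter motifs linked to the Lin28a protein also occur in its own mRNA. GGAG, the motif of the let-7 precursors that the zinc knuckles bind, occurred 21 times on the sense strand (7 in the coding region, 14 in the 3′ UTR), where the median over 2110 mRNA stretches of the same length was 25. AAGNNG, also known from Lin28a binding sites, occurred 19 times, where the median was 20. Each motif occurred at least once in 100% of those stretches. The mean reactivity was 0.296 inside GGAG and 0.366 outside. After dividing each base by the mean of its kind within Lin28a, it was 0.93 inside and 1.00 outside. The scaled difference was not kept in replicate 1, with 1.01 inside and 1.00 outside. Inside AAGNNG the mean was 0.381, and 0.364 outside, but it was 0.339 and 0.346 in replicate 1, and the scaled values were 0.962 inside and 1.00 outside. In the coding region AAGNNG was at 0.458 against 0.383 outside, and in the 3′ UTR at 0.312 against 0.364. These values are a description of letters in this mRNA and not of binding.

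Predicted and measured unpaired bases went the same way to a small extent. ViennaRNA predicted 44.3% of the measured positions to be unpaired, and their mean reactivity was 0.408 against 0.330 at positions predicted to be paired. The difference of 0.078 was 0.150 in the coding region and 0.065 in the 3′ UTR, and 0.070 and 0.089 in replicates 1 and 2. With DMS alone it was 0.072, and with CMCT alone 0.032. The merged difference was smaller in 28.5% of 1279 mRNAs with at least 5 treated stops per base, whose median was 0.097. After dividing each base by the mean of its kind it was 0.0287.

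The most reactive single positions were also read as counts. In all, 703 positions were at the highest reactivity, since Winsorising sets the top values equal, and the 10 of these with the most treated stops lay in the 3′ UTR except for position 668. At the U at position 1105 NT had 19 and 14 stops, DMS 41 and 27, and CMCT 73 and 73. At the U at position 2737 NT had 13 and 11 stops, DMS 34 and 26, and CMCT 68 and 71. The A at position 1061 responded to DMS alone, with 4 and 5 stops in NT, 29 and 26 in DMS, and 3 and 3 in CMCT. The C at position 2672 was higher with both reagents, with 4 and 4 stops in NT, 20 and 19 in DMS, and 22 and 20 in CMCT. Replicates differed at others of the 10. The U at position 668 had 8 and 5 stops in NT, 23 and 0 in DMS, and 50 and 14 in CMCT, and the U at position 2872 had 10 and 0 in NT, 21 and 0 in DMS, and 37 and 28 in CMCT. At the U at position 1860 DMS had 63 and 10 stops, beside 11 and 2 in NT. By contrast, several of the strongest stops were natural ones. The U at position 1035 had 39 and 35 stops in NT, 25 and 14 in DMS, and 43 and 36 in CMCT, and a reactivity of 0.

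To locate changes along the mRNA with a test, counts were summed over 117 windows of 30 nucleotides, of which 112 were deep enough. Of these, 7 passed an adjusted p of 0.05 for DMS over NT (6.25%), 1 higher and 6 lower, where 14.7% of all 233061 windows were called (8.21% higher and 6.45% lower). For CMCT over NT 12 passed (10.7%), 1 higher and 11 lower, where 10.1% of all windows were called (5.41% higher and 4.68% lower). The median log2 fold change over the 112 windows was -0.12 for DMS and -0.05 for CMCT, beside 0.05 and 0.01 over all windows. Both comparisons share the NT libraries, and 2 windows were called in both (28.6% of the 7 and 16.7% of the 12). With windows of 60 nucleotides 1 of 58 was called for DMS and 4 for CMCT (1.72% and 6.90%), where 13.3% and 9.66% of all such windows were called.

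For DMS over NT, the window from 2821 to 2850 in the 3′ UTR fell most. It had 48 and 40 stops in NT, 8 and 5 in DMS, and 21 and 16 in CMCT, and fell by 3.29 on the log2 scale (SE 0.39, edgeR adjusted p = 0.0171) with DMS. It also fell by 2.16 with CMCT. The single higher window that passed with DMS, 751 to 780 just behind the stop codon, had 4 and 4 stops in NT, 35 and 22 in DMS, and 21 and 24 in CMCT, a log2 fold change of 2.28 (SE 0.51, edgeR adjusted p = 0.0278). The windows from 931, 2911, 2851, 811 and 1021 had log2 fold changes of -2.09, -1.84, -1.80, -1.57 and -1.56 and also passed the test. At positions found once 6 of 97 windows passed with DMS, where 12.4% of all windows did, and that from 2851 was at -1.63 (edgeR adjusted p = 0.0614). Of the 6 lower windows, 3 lie between 2821 and 2940.

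For CMCT over NT, the window from 1321 to 1350 was the only higher one that passed the test. It had 8 and 7 stops in NT, 25 and 27 in DMS, and 87 and 84 in CMCT, a log2 fold change of 2.64 (SE 0.41, edgeR adjusted p = 0.0267), but all 30 of its positions are repeated in the genome. The first window of the mRNA, positions 1 to 30 of the 5′ UTR, had 17 and 17 stops in NT, 10 and 9 in DMS, and 7 and 6 in CMCT, and fell by 2.28 (SE 0.43, edgeR adjusted p = 0.0267). A coding window, 571 to 600, which overlaps the start of the sequence for zinc knuckle 2, had 42 and 38 stops in NT, 35 and 30 in DMS, and 32 and 20 in CMCT, and fell by 1.57 (SE 0.33, edgeR adjusted p = 0.0298). The windows from 1231, 2911, 3331, 1381, 1261 and 1111 passed as well, with log2 fold changes of -2.49, -2.11, -2.09, -1.77, -1.70 and -1.62. At positions found once 7 of 97 windows passed with CMCT, where 8.05% of all windows did. There that from 1111 was at -1.53 (edgeR adjusted p = 0.0592), and those from 1321, 1381 and 1261 had no value. In 3 of the 6 fits that left out 1 library no window of any gene was called for a given comparison. Of the windows named, those from 2911, 811 and 1021 with DMS and that from 1111 with CMCT passed in none of the 6. Over these 6 fits the log2 fold change with DMS ranged from -3.53 to -3.07 in the window from 2821 and from 1.87 to 2.59 in that from 751, and with CMCT from 2.33 to 2.91 in that from 1321.

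**Figure D4:**
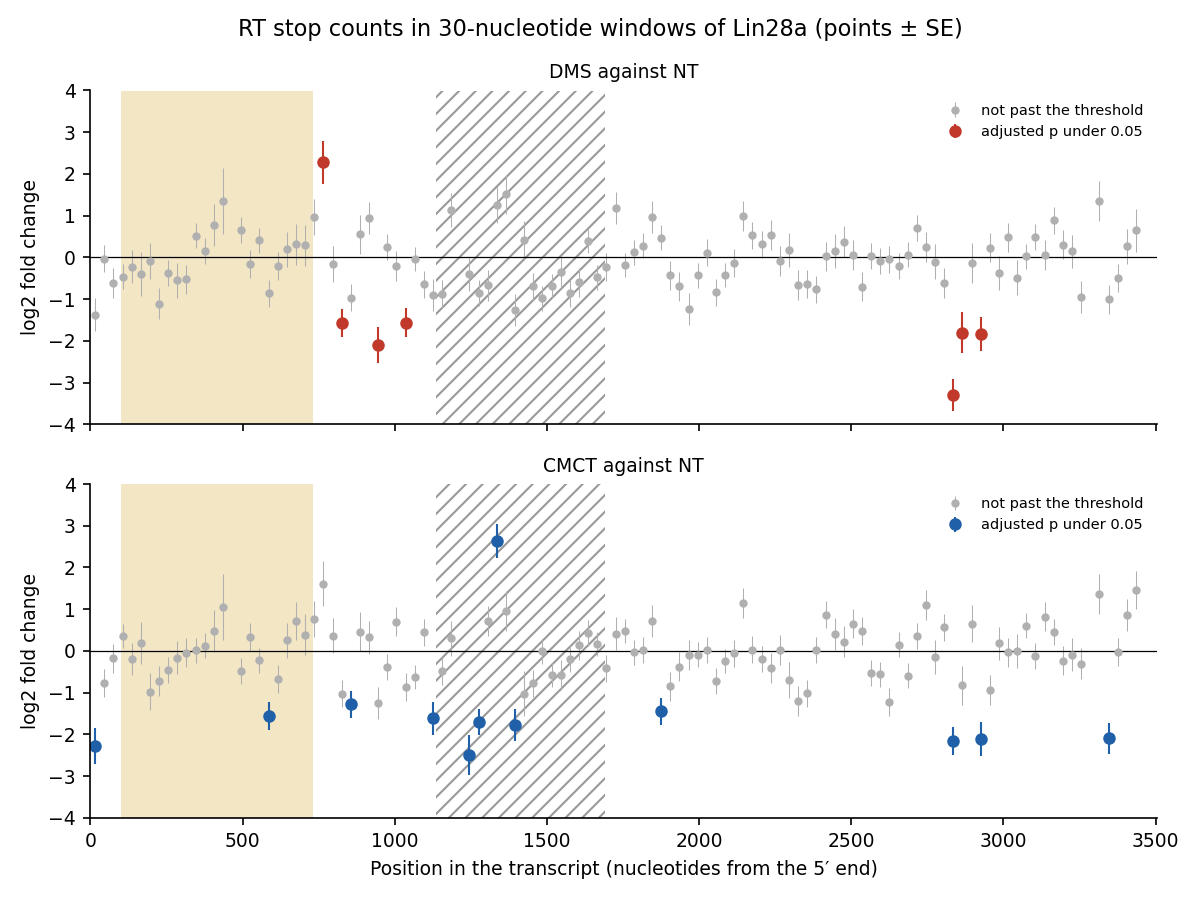
Log2 fold change of RT stop counts (vertical axis, points ± SE) in windows of 30 nucleotides along the Lin28a mRNA (horizontal axis, nucleotides from the 5′ end), DMS over NT above and CMCT over NT below. Coloured points passed an adjusted p of 0.05, grey points did not, the shaded band is the coding region and the hatched band the stretch with a second genomic copy. Only 1 higher window passed the threshold in each panel, at 2.28 with DMS and 2.64 with CMCT.

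How Lin28a compared with other mRNAs depended on their depth. Its 3′ UTR was more reactive than 94.9% of 4169 mRNAs with at least 1 treated RT stop per base, whose median was 0.239. It was above 85.4% of those with at least 5 stops per base, and above 63.5% of 370 mRNAs with at least 5 stops per base in both the coding region and the 3′ UTR, whose median was 0.341. Lin28a itself had 7.50 treated stops per base. The coding region was above 67.9%, 42.3% and 24.2% of the mRNAs of these sets, and the 5′ UTR above 67.8%, 64.3% and 61.9%. Its difference between coding region and 3′ UTR, 0.0263, was larger than in 16.5%, 20.7% and 25.9% of them. Among the mRNAs of the last set the 3′ UTR of Lin28a was above the median and its coding region below it. These mRNAs were mostly read more deeply, with a median of 13.8 treated stops per base, and only 16.1% of them were below Lin28a.

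**Figure D5:**
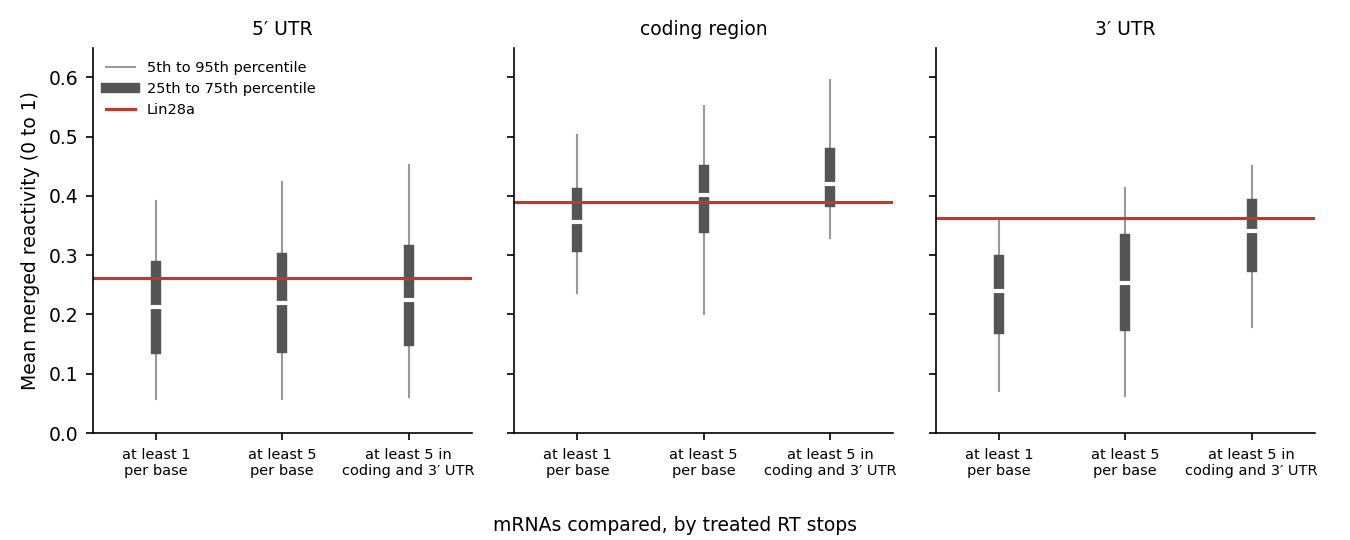
Mean merged reactivity (vertical axis, 0 to 1) of each region of Lin28a (red line; one panel per region) beside mRNAs of 3 depths (horizontal axis, treated RT stops per base). Thin lines span the 5th to the 95th percentile, thick lines the 25th to the 75th, and the white mark is the median. The 3′ UTR median rose from 0.239 to 0.341 with depth, towards the Lin28a value of 0.363.

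The genes around Lin28a in the let-7 pathway were read in the same fit. Of 23 listed, 18 were in the CIRS-seq files. By edgeR 4 were lower than NT with DMS, where 12.5% of all genes were lower and 13.8% higher, and 4 were lower with CMCT, where 13.9% were lower and 15.0% higher. No member was higher with either reagent by edgeR, and none had an unadjusted edgeR p under 0.05 in that direction. DESeq2 called 0 higher, where it called 22.0% (DMS) and 19.3% (CMCT) of all genes higher. It called 6 (DMS) and 5 (CMCT) lower, where it called 20.3% and 18.0% of all genes lower. The medians over the list were -0.22 and 0.12, beside 0.01 and 0.11 over all genes. The paralogue Lin28b had 7.16 and 9.03 CPM in NT, 8.94 and 8.51 in DMS, and 6.54 and 7.91 in CMCT, with overlapping groups. Igf2bp2, an RNA-binding protein and let-7 target, fell most with DMS, by 2.49 (SE 0.44, edgeR adjusted p = 0.00165). It had 154 and 140 CPM in NT, 25.0 and 27.3 in DMS, and 49.4 and 17.9 in CMCT. Of its stops, 72.5% were at positions found once, but it had only 303 alignments in the RNA-seq library, beside 1768 for Lin28a. Cdk6, a cell cycle kinase, fell by 1.96 with DMS and 1.99 with CMCT, but only 1.00% of its stops were at positions found once. Trim71, a ubiquitin ligase and let-7 target, fell by 1.42 with DMS, Igf2bp1 by 1.49 with DMS and 1.03 with CMCT, and Dgcr8, the partner of Drosha in the Microprocessor, by 1.46 with CMCT. With positions found once alone, edgeR called 1 of the 18 with DMS (Igf2bp2) and 0 with CMCT, where 8.89% and 5.49% of all genes were called. There Igf2bp2 was at -2.29 with CMCT (edgeR adjusted p = 0.0610). Igf2bp1 was at -0.50 with DMS and 0.29 with CMCT, Cdk6 at -0.18 and 0.12, Trim71 at -0.84 with DMS, and Dgcr8 at 0.46 with CMCT, so that Igf2bp1, Cdk6 and Dgcr8 turned in sign with CMCT. At these positions 3 and 2 members had an unadjusted edgeR p under 0.05, as had 30.4% and 27.3% of all genes. The reprogramming factors Pou5f1, Sox2, Nanog and Klf4 did not pass the edgeR test in either comparison. Of these 4 genes, 0 had an unadjusted edgeR p under 0.05, and DESeq2 called 0. Over all genes, 40.7% (DMS) and 39.2% (CMCT) had such a p, and DESeq2 called 42.3% and 37.4%.

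The genes whose log2 CPM over the 6 libraries moved most like that of Lin28a were Cul1 (Pearson's r = 0.998), Mycn (r = 0.997), Ppp2r1b, Cited2 and Heatr3 (each r = 0.994), and 12 protein-coding genes reached 0.99. They were picked for this likeness over the same libraries, so the overlap of NT and DMS that they share with Lin28a follows from the choice. Mycn, for example, had 13.7 and 12.8 CPM in NT, 13.8 and 11.3 in DMS, and 15.1 and 17.1 in CMCT.

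In the ribo-depleted RNA-seq library, the only one and so without a replicate check, Lin28a was among the higher genes. It had 1768 of 31857551 alignments (exact Poisson interval 1687 to 1852, counting error only). That was 16.3 RPKM (alignments scaled to the library total and per kilobase of exon outside other genes). This put it at rank 1213 of 19243 protein-coding genes with an alignment. Lin28b was at 3.70, Pou5f1 at 75.1, Nanog at 55.6, Sox2 at 38.0, Klf4 at 7.47, Igf2bp1 at 31.3 and Igf2bp2 at 1.33 on the same scale. The alignments per 1000 start positions were 159 in exon 1, 155 in exon 2, 426 in exon 3 and 561 in exon 4, and 4.85, 6.36 and 3.90 in the 3 introns. Exonic levels were thus far above those of the introns, and the first 2 exons were lower than the last 2, with Poisson intervals of 84.4 to 271 for exon 1 and 534 to 589 for exon 4. Spliced alignments were absent, so reads across junctions are missing. The rates above count only start positions at which an alignment fits wholly inside the exon. Of the exon bases, 103 are shared with exons of the antisense gene Gm13061 (chr4:133574062-133575784). The span of that gene, introns included, holds all of exon 1 and part of exon 2. Alignments on the plus strand were 1 of 13 in exon 1 (7.69%), 8 of 23 in exon 2 (34.8%) and 17 of 58 in exon 3 (29.3%). In exon 4, which like exon 3 lies outside Gm13061, they were 828 of 1651 (50.2%). Since exon 4 held both strands about equally, strand cannot assign alignments to either gene in this library.

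The cell line's label was checked against marker genes. All 7 ES cell markers were present in the CIRS-seq files and lay between 20.8 and 221 RPKM in the RNA-seq library. The 5 fibroblast or feeder markers lay between 0.0040 and 0.235. The differentiated lineage markers lay between 0 and 3.10, with 2 of them at 0 alignments, and Sox1 was not analysed here. The summed CPM of the ES cell markers in the CIRS-seq libraries was 298 to 343 in NT, 325 to 330 in DMS and 324 to 337 in CMCT. Of the feeder markers, only Col1a1 was in those files, with 220 to 292 CPM in NT, 60.2 to 61.9 in DMS and 43.1 to 70.5 in CMCT, and 0.772% of its stops were at positions found once. Of the differentiated markers T, Fgf5 and Pax6 were in the files, and their summed CPM was 863 to 1197 in NT, 622 to 748 in DMS and 636 to 948 in CMCT. Fgf5 and Pax6 made up most of this sum, and only 0.553% and 1.59% of their stops were at positions found once. In the RNA-seq library Col1a1 had 9 alignments, T had 5, Pax6 had 58 and Fgf5 had 0. The part of these genes in the values of Lin28a was not tested.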

How the data were processed

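The authors deposited the CIRS-seq data as whole-number counts of RT stops at each transcript position, without normalization, and the RNA-seq data as alignments to mm9, which were counted here. The submitters' processing notes name Bowtie 1.0.0, FastQC 0.10.1 and bedtools 2.17.0 for CIRS-seq, and TopHat2 2.0.6 for RNA-seq. How reads that map to several loci were handled is not given in the sources used here. The deposited count of a position taken once per gene summed to 140186204 to 247369982 per library, and intervals cover counting error only. Transcripts were matched to GENCODE vM1 (26792 of 26827).

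Genes, mRNA regions and windows of 30 nucleotides were tested over all features with edgeR 4.0.16 in R 4.3.3 (TMM, filterByExpr, quasi-likelihood test, adjusted p of 0.05), 2 libraries per treatment and 1 fit over 6. Scripts used Python 3.11.15, numpy 2.4.6, pandas 2.3.3, numba 0.67.0, scipy 1.17.1 and matplotlib 3.10.9, and the fits were tested on simulated data. For DMS over NT they recovered 19% of 2-fold and 92% of 4-fold changes among 13151 genes, 10% and 92% among 14760 regions, and 5% and 78% among 30000 windows. The simulations had a single fixed spread, few changed features and only features above a minimum expected count. These rates are therefore not the power for Lin28a. For reactivity the pseudocount was 1, positions with no treated stop were at 0, and regions under 50 bases were left out of comparisons. Pairing was predicted with ViennaRNA 2.7.2 (window 150, span 100, unpaired from a probability of 0.5).

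The alternatives were DESeq2 1.42.0, no filter, positions whose next 25 bases occur once, other windows, a replicate block, a pseudocount of 5, other Winsorising, single reagents, base scaling, shifted positions and leaving out libraries. For windows, reactivity and the pathway list, the use of positions found once was chosen after seeing the data, as were the deeper sets of mRNAs and the predicted pairing. The gene and its lists were chosen with earlier results of these data known. Other genes named were the let-7 pathway and reprogramming lists and the 5 genes most like Lin28a; windows named were at most 10 per comparison by size of change, and positions the 10 with the most treated stops at the highest reactivity and the 10 with the most NT stops, of which a few are printed.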

Additional observations from a re-analysis of the deposited data

How the results depend on the processing

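The gene's fold changes stayed under the threshold in every alternative; that of DMS over NT turned to 0.040 at positions found once. Leaving out 1 library at a time gave -0.14 to 0.39 for the coding region and -0.23 to 0.015 for the 3′ UTR with DMS over NT, -0.19 to 0.10 for the 5′ UTR with CMCT over NT, and -0.42 to 0.12 for the coding region with DMS over CMCT, none past the threshold. At positions found once edgeR called 0 of 15426 regions, with 4285 (DMS) and 4501 (CMCT) at an unadjusted p under 0.05. Windows called for DMS over NT were 11 with no filter (11.6% of all windows), 1 at 60 nucleotides and 12 shifted by 15 (14.5%), and 0 to 3 without 1 library; for CMCT over NT they were 4 at 60 nucleotides and 7 at positions found once, and 0 to 10 without 1 library. The fits without NT 1, NT 2 or DMS 2 called no window of any gene for DMS (73532, 66501 and 62844 at an unadjusted p under 0.05), nor did those without NT 2, CMCT 1 or CMCT 2 for CMCT (60082, 58475 and 52678). In both comparisons, every fit without 1 library also called fewer of all windows, higher and lower, than the main fit. The lower window counts of Lin28a in those fits are therefore not particular to this mRNA. Pathway genes called at positions found once were 1 and 0. The coding region minus the 5′ UTR was 0.150 with a pseudocount of 5, 0.101 with Winsorising above 0, 0.110 with DMS alone, 0.0670 with CMCT alone and 0.115 to 0.127 in single replicates. The coding region minus the 3′ UTR was 0.0362, 0.00126, 0.0381, 0.0177 and 0.0178 to 0.0298 with DMS alone, CMCT alone, base scaling, positions found once and single replicates. The value with base scaling was set back on the reactivity scale. The 3′ UTR mean was 0.310, 0.274, 0.235, 0.229 and 0.331 to 0.346 with the pseudocount, the Winsorising, DMS alone, CMCT alone and single replicates. The DMS base preference of 1.06 was 0.489 with a pseudocount of 5, 0.274 and 0.458 at 1 nucleotide upstream and downstream, and 0.758 to 1.06 in single replicates; that of CMCT turned to -0.12 upstream. The RNA-seq level was 14.1 with names listed once. The cause of these shifts was not tested. With the replicate block the windows called were 13 (DMS over NT) and 14 (CMCT over NT), where 18.4% and 13.8% of all windows were called, and no call of the gene, its regions or the windows named changed; the pathway list was not run with it. Deviations of the same replicate number correlated across genes with r of 0.553 (NT and DMS), 0.0101 (NT and CMCT) and -0.107 (DMS and CMCT). The labels do not say that a number marks a shared batch, and with 2 pairs the r of NT and DMS is a hint from the data only, so the block is given as an alternative. Single microRNA sites were not tested.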
